A study of Mus musculus with 4 samples.

Results

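The genes described here are the IL-22 pathway members Il22, Il22ra1, Il22ra2, Il10rb, Il23a, Il18, Stat3 and Osmr, together with Lrg1 and Plet1, in the small intestinal epithelium of mice with the G181R or the wild-type form of D-amino acid oxidase (DAO). They are 10 of the 37325 gene names on the array, read by 17 of its 56605 probes, and were found by the gene name that the array design gives each probe. Il22, Lrg1 and Plet1 were chosen by their signals on the ileum arrays, where they stood far higher in G181R than in wild-type mice, so their values in that comparison are a description and support nothing. Epithelial tissue was scraped from ileum and jejunum of C57BL/6J mice aged 9 weeks. The G181R mice were Tcrbd-/- and DAO G181R/G181R, and the wild-type mice were Tcrbd-/- and DAO wt/wt, so that animals of every group lacked the beta and delta chains of the T cell receptor. Each of the 4 groups (ileum G181R, ileum wild type, jejunum G181R, jejunum wild type) is 1 array on the same slide, hybridised with a pool of RNA from 5 mice. With 1 array per group no p-value and no spread between animals can be given, and every difference below compares those pools.

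IL-22 is a cytokine of the IL-10 family that innate lymphoid cells and T cells release in the gut wall under the influence of IL-23. It binds a receptor of IL-22RA1 and IL-10RB chains on epithelial cells, and the transcription factor STAT3 then switches on genes of antimicrobial defence, surface fucosylation and acute-phase secretion. IL-22RA2 is a soluble protein that captures IL-22 and keeps it from that receptor.

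The 5 probes behind the 3 genes with the largest rise are shown first, because Il22, Lrg1 and Plet1 each rest on what these 60-base oligonucleotides hybridise. They are given 5′ to 3′ as the scanner files hold them, with positions in mm9. Both Il22 probes also list the accession of Iltifb, a close copy of Il22 on chromosome 10, so transcripts of the copy cannot be told apart from Il22 here. The first Il22 probe lies at chr10:117642873-117642932 and the second at chr10:117646736-117646795, both on the plus strand. The Lrg1 probe lies at chr17:56259257-56259316 on the minus strand. The Plet1 probes lie at chr9:50313107-50313166 and chr9:50307294-50307353 on the plus strand.
Il22 probe A: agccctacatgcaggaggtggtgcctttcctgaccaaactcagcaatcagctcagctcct
Il22 probe B: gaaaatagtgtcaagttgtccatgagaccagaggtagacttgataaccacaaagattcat
Lrg1 probe: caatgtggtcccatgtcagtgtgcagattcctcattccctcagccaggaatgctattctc
Plet1 probe A: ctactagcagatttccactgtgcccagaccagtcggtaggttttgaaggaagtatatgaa
Plet1 probe B: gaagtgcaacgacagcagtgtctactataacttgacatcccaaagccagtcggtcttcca

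Signals below are processed intensities in arbitrary units. A log2 difference is taken after subtracting each array's 75th percentile, which was a signal of 175 and 185 in ileum (G181R and wild type) and 160 and 156 in jejunum. A probe counted as measured when the scanner software called it well above background, which took a signal of at least 6.11 and 7.20 in ileum (G181R and wild type) and 5.83 and 7.36 in jejunum. Where a probe passed on 1 array of a pair only, the fold is written as "at least", against the dim array's own signal or that lowest passing signal, whichever was higher. Of the probes, 57.4% to 60.4% passed per array and no spot was saturated. The error at hand is that between spots of 300 probes printed 10 times each. That error holds no variation between arrays or animals. For the genotype difference in ileum its SD on the log2 scale was 0.056 for 267 probes with signals of 1000 or more. It was 0.104 for 19 probes between 100 and 1000, 0.188 for 8 probes between 20 and 100, and 0.277 for 2 probes between 6 and 20. Of the markers of the labelled tissue, all 9 epithelial markers (Epcam, Cdh1, keratins and others) were measured on all 4 arrays, with a summed level of 1759 and 1828 times the 75th percentile in ileum (G181R and wild type) and 1692 and 1708 in jejunum. The 6 ileal markers summed to 1471 and 1696 times it in ileum and 169 and 175 in jejunum, and the 5 jejunal markers to 11.95 and 17.64 in ileum and 1150.5 and 1417 in jejunum, G181R first in each pair. Single regional markers differed by genotype: in ileum the ileal Cubn had 2975 in G181R against 19294 in wild-type mice, 6.15-fold lower, and the jejunal Gata4 had 44.6 against 20.9, 2.26-fold higher. Dao, the gene of the altered enzyme, had 145 and 157 in ileum and 1239 and 1309 in jejunum (G181R first), and its mRNA level does not check an exchange of 1 amino acid.

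In G181R ileum, Lrg1, Plet1, Il22 and Il18 were at least 2-fold higher than in wild-type ileum, and Stat3 and the receptor genes stayed within 2-fold. Of the 9 members measured on at least 1 ileum array, 4 were at least 2-fold higher and 0 lower. Among all 23379 genes measured there, 6.42% were at least 2-fold different, 2.44% higher and 3.98% lower. The median log2 difference over the 9 members was 0.36, beside 0.03 over all genes. Since 3 of the 9 members were picked for this rise, nothing is read from the count or from the median. The other 6, Il18, Stat3, Osmr, Il22ra2, Il22ra1 and Il10rb, lay between -0.45 and 1.01. In G181R jejunum 1 of 9 members, Lrg1, was at least 2-fold higher than in wild-type jejunum and 0 lower, while 2.56% of 23242 genes were at least 2-fold different, 1.13% higher and 1.43% lower. The median there was 0.26 over the members and 0.00 over all genes. Scraped tissue holds many cell types, and in such bulk RNA fewer cells of a type and less RNA per cell cannot be told apart.

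**Figure D1:**
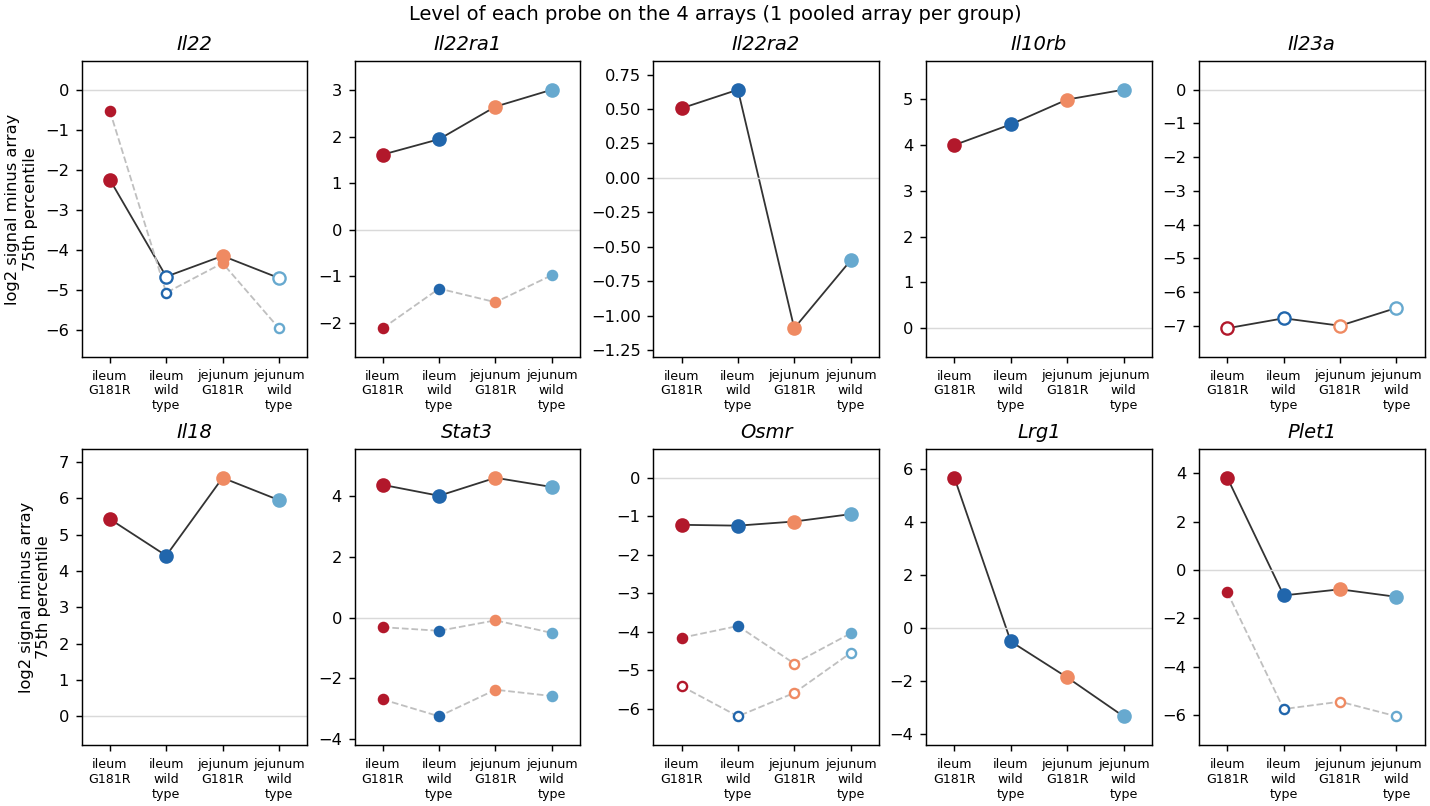
Level of each member probe on the 4 arrays, as log2 signal minus the array's 75th percentile (vertical axis, 1 panel per gene with its own scale). Large symbols with a solid line are the probe that stands for the gene, small symbols with a dashed line are its other probes, and open symbols were not well above background; lines only join the values of 1 probe. Lrg1, Plet1 and Il22 stand highest on the ileum G181R array, and Il23a is open on all 4 arrays.

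The ligand Il22 was measured in G181R mice and in neither tissue of wild-type mice. Probe A gave a signal of 36.9 in G181R ileum, against 7.27 in wild-type ileum, where it was not well above background. In jejunum it gave 8.99 in G181R and 5.99 in wild-type mice, the last again not well above background. Probe B gave 121 in G181R ileum against 5.50 in wild-type ileum, and 7.94 in G181R jejunum against 2.51 in wild-type jejunum, with the same arrays passing. G181R ileum was thus the highest array by either probe, at least 5.36-fold above wild-type ileum by probe A and at least 17.8-fold by probe B. In jejunum the bounds were only at least 1.19-fold and at least 1.05-fold, and the G181R signals there lay close to the lowest passing signal of 5.83. Those G181R signals also lay below the brightest negative control spot of that array, 16.7. The wild-type probe A signal of 5.99 failed on an array whose lowest passing signal was 7.36. In G181R mice the ileum level of Il22 was 3.74-fold the jejunum level by probe A and 13.9-fold by probe B. Normexp, another way to remove background, was run with an offset of 50, a constant added to every spot. With it the probe A genotype difference in ileum was 0.64 on the log2 scale and the tissue difference in G181R mice 0.44, both under 2-fold. The offset exceeds the probe A signals of all 4 arrays and by itself makes differences between them smaller. These normexp values therefore cannot tell whether the Il22 differences depend on background removal. Probe A stood for the gene because its mean log2 signal over the 4 arrays was the higher. The separate probe for Iltifb was not well above background on any array, with signals of 1.43 and 1.72 in ileum (G181R and wild type) and 1.38 and 1.79 in jejunum.

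The known inducers of IL-22 that were measured in ileum did not show a rise of that size, and IL-23 could not be judged. Il23a, which encodes the p19 chain of IL-23, had signals of 1.297 in G181R ileum, 1.68 in wild-type ileum, 1.25 in G181R jejunum and 1.75 in wild-type jejunum. The median signal of the 308 negative control spots was 1.34, 1.60, 1.28 and 1.66 on the same arrays, so Il23a lay at the level of empty probes and no difference can be given for it. Il12b, the other chain of IL-23, was not well above background on any array either. Of the 6 inducers listed, 3 were measured in ileum and 0 were at least 2-fold different. Of all genes 6.42% were so in ileum, and a count over 3 genes says little beside that share. Il1b, an inflammasome product, had 38.6 in G181R ileum and 23.8 in wild-type ileum, a log2 difference of 0.78. Tnf differed by 0.63 and Tnfsf15, the TNF-like cytokine TL1A, by -0.74. In jejunum Il6 was seen only in wild-type mice, at a signal of 16.8 against 1.20 in G181R mice, at least 2.95-fold lower in G181R, while Tnfsf15, Tnf and Il1b differed by -0.50, 0.36 and -0.01. The list of 6 therefore gave no uniform direction, with log2 medians of 0.63 over 3 genes in ileum and -0.26 over 4 in jejunum, beside 0.03 and 0.00 over all genes.

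Of 16 listed genes of group 3 innate lymphoid cells, which release IL-22, 11 were measured in ileum. Of these, 0 were at least 2-fold higher and 2 lower, beside 2.44% and 3.98% of all genes. Over 11 genes, a count of 0 higher says little beside such a share. Of the 11, 4 lay above 0, and the median log2 difference was -0.11. Id2, a factor that all innate lymphoid cells need, had a signal of 314 in G181R ileum against 680 in wild-type ileum, 2.05-fold lower. Epithelial cells transcribe Id2 as well. The growth factor receptor Kit differed by -0.77 and the chemokine receptor Ccr6 by 0.73. The lymphotoxin chain Ltb, at 563 in G181R ileum against 390.0 in wild-type ileum, differed by 0.61. B cells carry Ccr6 too, and of 8 B cell markers 7 were measured in ileum with a median of 0.68 and 6 in jejunum with a median of -0.72. In jejunum Ccr6 had signals of 9.80 in G181R and 28.5 in wild-type mice, 2.98-fold lower, and the part of B cells in its values was not tested. Of the 13 genes measured in jejunum 0 were at least 2-fold higher and 1, Ccr6, lower, beside 1.13% and 1.43% of all genes. Il23r, the receptor chain for IL-23, was seen in G181R jejunum only, at 12.8 against 6.42 in wild-type jejunum, at least 1.70-fold. That 12.8 and the 9.80 of Ccr6 lie below the brightest negative control spot of the G181R jejunum array, 16.7. Ltb differed in jejunum by -0.41. Il17a and Il17f, the other signature cytokines of these cells, were not well above background on any array. T cell markers, which innate lymphoid cells share in part, had a median log2 difference of 0.17 in ileum and -0.29 in jejunum over all 10 listed.

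Both chains of the IL-22 receptor and its soluble antagonist were slightly lower in G181R than in wild-type mice in each tissue, all by less than 2-fold. Il22ra1, the chain that makes epithelium responsive, had a signal of 537 in G181R ileum and 712 in wild-type ileum, a log2 difference of -0.33. In jejunum it had 999 in G181R and 1256 in wild-type mice, a difference of -0.36. Its dimmer probe gave -0.85 and -0.58, the same sign with a larger size. Il10rb, the chain shared with the IL-10 and lambda interferon receptors, had 2795 in G181R ileum against 4030 in wild-type ileum (-0.45) and 5069 in G181R jejunum against 5748 in wild-type jejunum (-0.21). Il22ra2 had 248.6 and 288.1 in ileum (-0.14) and 74.9 and 103 in jejunum (-0.49), G181R first. The difference of -0.14 is little more than the spot SD of 0.104 at that signal, and the others exceed the SD of their signal range.

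By the probes that stand for them, the receptor genes varied more by tissue than by genotype, and in opposite ways. Il22ra1 was lower in ileum than in jejunum, 2.04-fold in G181R mice and 2.09-fold in wild-type mice. Those calls at 2-fold did not hold under every setting: in log2, quantile normalization gave -0.99 in G181R and -0.97 in wild-type mice, normexp -0.91 and -0.94, and the mean of its probes -0.79 and -0.68. Its dimmer probe alone gave -0.56 and -0.29, no larger than its genotype differences of -0.85 in ileum and -0.58 in jejunum. Il10rb was 1.99-fold lower in ileum in G181R mice and 1.69-fold in wild-type mice. Il22ra2 was higher in ileum, 3.03-fold in G181R mice and 2.36-fold in wild-type mice, and normexp put the wild-type value at 0.93 on the log2 scale. Of the members measured in G181R mice, 4 of 9 were at least 2-fold higher in ileum (Lrg1, Plet1, Il22 and Il22ra2) and 2 lower (Il22ra1 and Il18). Of all 23868 genes 17.5% differed so there, 7.92% higher and 9.62% lower, but Lrg1, Plet1 and Il22 were picked for high signals on the same ileum array and nothing is read from that count. In wild-type mice 2 of 8 were higher (Lrg1 and Il22ra2) and the same 2 lower, where 18.3% of 23231 genes differed, 8.3% higher and 10% lower.

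Of 10 other cytokines and receptors of the IL-10 family, 9 are on the array and 4 were measured. Of these 4, 0 were at least 2-fold different in either tissue, where 6.42% of all genes in ileum and 2.56% in jejunum were, so the count says little about the family. Il10ra, the ligand-binding chain for IL-10, differed by 0.74 in ileum and -0.20 in jejunum. Ifnlr1, which pairs with Il10rb for lambda interferon, differed by -0.08 and -0.24. Il20rb differed by -0.13 and -0.27, and Ifnl3 by 0.20 and -0.03. Il10, Il19, Il20, Il24 and Il20ra were not well above background on any array.

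Osmr, a receptor chain for oncostatin M, which like IL-6 signals through STAT3, did not differ beyond the spot error in ileum. Its signal was 75.1 in G181R ileum and 78.0 in wild-type ileum, a log2 difference of 0.02, and 72.7 in G181R jejunum and 81.1 in wild-type jejunum, a difference of -0.19. By this probe all 4 arrays lay within a narrow band. A dimmer probe gave -0.31 in ileum, at signals of 9.81 and 12.8 (G181R and wild type), and in jejunum it passed in wild-type mice only and was at least 1.66-fold lower in G181R. The remaining probe was below background throughout, and the mean of all 3 gave -0.67 in jejunum. The ligand gene Osm was not well above background on any array. In the list of 11 IL-6 family genes, 8 were measured in ileum with 0 at least 2-fold different, beside 6.42% of all genes. The largest differences were those of the cytokine Il11 (0.75), the receptors Il6ra (-0.68) and Lifr (-0.54), and Il31ra (0.47). In jejunum 9 were measured, and Il6, given above, was the 1 gene past 2-fold, beside 2.56% of all genes. There Lif, Il11, Il31ra and the shared chain Il6st, known as gp130, differed by -0.91, -0.83, 0.62 and 0.54. Lif, Il11 and Il31ra had signals under 25 throughout.

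Stat3 itself was modestly higher in G181R mice in both tissues. Its brightest probe gave 3642 in G181R ileum against 2996 in wild-type ileum, 1.28-fold, and 3904 in G181R jejunum against 3092 in wild-type jejunum, 1.23-fold. The log2 differences of 0.36 and 0.30 exceed the spot SD several times over. The dimmer probes gave 0.12 and 0.56 in ileum and 0.41 and 0.21 in jejunum, so that all 3 probes were higher in G181R in both tissues with sizes that vary by probe. The 0.12, at signals of 141 and 137 (G181R and wild type), is little more than the spot SD of 0.104 in that range. Among 13 other genes of JAK-STAT signalling, all measured, Socs3 alone was at least 2-fold different in either tissue. Of all genes 6.42% were so in ileum and 2.56% in jejunum. Socs3, an inhibitor that STAT3 induces, had 12324 in G181R ileum against 2761 in wild-type ileum, 4.71-fold, and 6284 in G181R jejunum against 1782 in wild-type jejunum, 3.45-fold. Stat4, which carries IL-12 signals, differed by 0.78 in ileum and -0.27 in jejunum. Pias3, an inhibitor of STAT3, differed by -0.54 and -0.22. The receptor-bound kinases Jak1, Jak2 and Tyk2, named here after their values were seen, differed by -0.06, -0.33 and -0.35 in ileum.

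**Figure D2:**
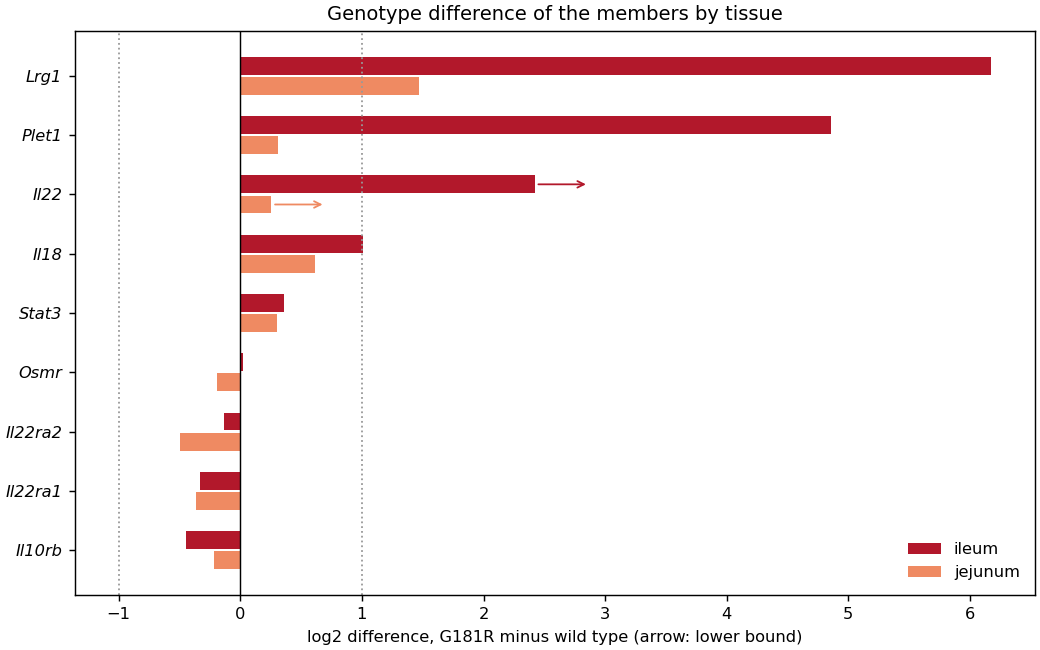
Log2 difference of G181R minus wild type (horizontal axis) for the 9 measured members in ileum and in jejunum, 1 array per group, with dotted lines at 2-fold and an arrow where the value is a lower bound. Lrg1 and Plet1 reach 6.17 and 4.86 in ileum but 1.47 and 0.31 in jejunum, while Il18 and Stat3 are higher in both tissues and Il22ra1, Il10rb and Il22ra2 lower in both.

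Lrg1, a secreted leucine-rich glycoprotein of the acute phase, covered the widest range of any member. Its signal was 8945 in G181R ileum against 131 in wild-type ileum, and 44.2 in G181R jejunum against 15.6 in wild-type jejunum. The 4 arrays therefore fell in the order ileum G181R, ileum wild type, jejunum G181R, jejunum wild type. The genotype difference was 72.1-fold in ileum, the largest rise among genes well above background on both ileum arrays, and 2.77-fold in jejunum. Genes that passed on 1 array only, such as Cxcl5 at no less than 26.6-fold, have bounds and cannot be ranked against it. On the log2 scale the ileum difference exceeded the jejunum one by 4.70. Set against jejunum, ileum held 184-fold more Lrg1 signal in G181R mice and 7.07-fold more in wild-type mice. With normexp the genotype difference was 5.69 in ileum and 0.47 in jejunum on the log2 scale, the second under 2-fold. The tissue difference in wild-type mice was 1.24 in place of 2.82. Both jejunum signals, 44.2 and 15.6, lie below the normexp offset of 50, which by itself makes differences that involve them smaller.

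Plet1, a surface protein known from progenitor cells of skin and placenta in mice, was high on 1 array only. Probe A gave 2450.1 in G181R ileum, 89.1 in wild-type ileum, 91.6 in G181R jejunum and 72.2 in wild-type jejunum. The last 3 lay close together, with log2 differences of 0.31 between the genotypes in jejunum and 0.06 between the tissues in wild-type mice. The ileum genotype difference was 29.0-fold, next after Lrg1 among genes well above background on both ileum arrays, and exceeded the jejunum one by 4.55 on the log2 scale. Probe B was well above background in G181R ileum alone, at 92.1 against 3.44 in wild-type ileum, at least 13.5-fold. The probe for the antisense transcript Plet1os was not well above background on any array.

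Il18, made by enterocytes as a precursor that caspase-1 cleaves, was higher in G181R mice in both tissues. Its signal was 7551 in G181R ileum against 3965 in wild-type ileum, 2.01-fold, and 15145 in G181R jejunum against 9668 in wild-type jejunum, 1.53-fold. Both differences, 1.01 and 0.61 on the log2 scale, are far above the spot SD. The ileum value sits on the 2-fold threshold, and quantile normalization put it at 0.96. Ileum held less Il18 than jejunum in either genotype, 2.20-fold in G181R and 2.89-fold in wild-type mice. Of 14 genes of IL-18 signalling and the inflammasome, 13 were measured in ileum, with a median of 0.58. Of the 13, 2 were at least 2-fold higher and 0 lower, beside 2.44% and 3.98% of all genes. Ifng, another of the 13, passed on the G181R ileum array only and entered the median through it. In jejunum 12 were measured and 1 was higher, beside 1.13% of all genes, with a median of 0.26. Il18bp, a secreted protein that neutralises IL-18, had 746 in G181R ileum against 276 in wild-type ileum, 2.85-fold, and 351 against 241 in jejunum, a difference of 0.51. Il33, an alarmin of the same cytokine family, had 246 against 43.8 in ileum, 5.92-fold, and 1044 against 416 in jejunum, 2.45-fold. The inflammatory caspase Casp4 differed by 0.79 in ileum and 0.63 in jejunum, and the pore protein Gsdmd by 0.63 and 0.36. Casp1 itself, picked for its role after its value was known, differed by -0.04 and 0.02.

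Genes listed as epithelial responses to IL-22 and STAT3 were largely higher in G181R ileum. Of 25 listed, 23 were measured in ileum, of which 16 were at least 2-fold higher and 0 lower, beside 2.44% higher among all genes, and their median log2 difference was 1.59. In jejunum 20 were measured, of which 10 were at least 2-fold higher and 0 lower, beside 1.13%, with a median of 0.80. The list was drawn up with earlier results of these arrays known, so these counts are not independent evidence of a direction. In ileum S100a8, S100a9, Cxcl1 and Cxcl5 passed on the G181R array only and entered the count and the median through it. Cxcl1 and Cxcl5 did so in jejunum as well, where Cxcl1 is among the 10. Fut2, which fucosylates the epithelial surface, had 315 in G181R ileum and 22.3 in wild-type ileum, 14.9-fold, and was not well above background in jejunum. Retnlb, a goblet cell product, was 4.84-fold higher in ileum and 3.40-fold in jejunum. The neutrophil-attracting chemokines Cxcl5 and Cxcl1 were at least 26.6-fold and at least 17.3-fold higher in ileum. S100a9 and S100a8, which form calprotectin, were at least 14.2-fold and at least 3.58-fold higher there. In jejunum the list was led by the serum amyloid Saa2 at 15.0-fold, the oxidase Duox2 at 5.04-fold with its partner Duoxa2 at 5.81-fold, Saa1 at 4.27-fold and Cxcl1 at least 3.02-fold.

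The brightest probes of the same list differed among themselves. Saa2 had 100719 in G181R ileum and 35272 in wild-type ileum, 3.01-fold, and Saa1 had 72690 and 23396, 3.28-fold. Reg3g, an antimicrobial lectin and well-known IL-22 target, had 115749 in G181R ileum and 111848 in wild-type ileum, a log2 difference of 0.13, and Reg3b had 86885 and 82769, a difference of 0.15. No spot of either was marked as saturated. Reg3a, at 21013 against 6212, was 3.57-fold higher in ileum and differed by -0.08 in jejunum. Haptoglobin (Hp), an acute-phase protein like Lrg1, was lower in G181R, by -0.77 in ileum and -0.72 in jejunum. Reg3b, Reg3g, Reg3a and Hp, and the ileum values of Saa1 and Saa2, were named with their values already known.

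**Figure D3:**
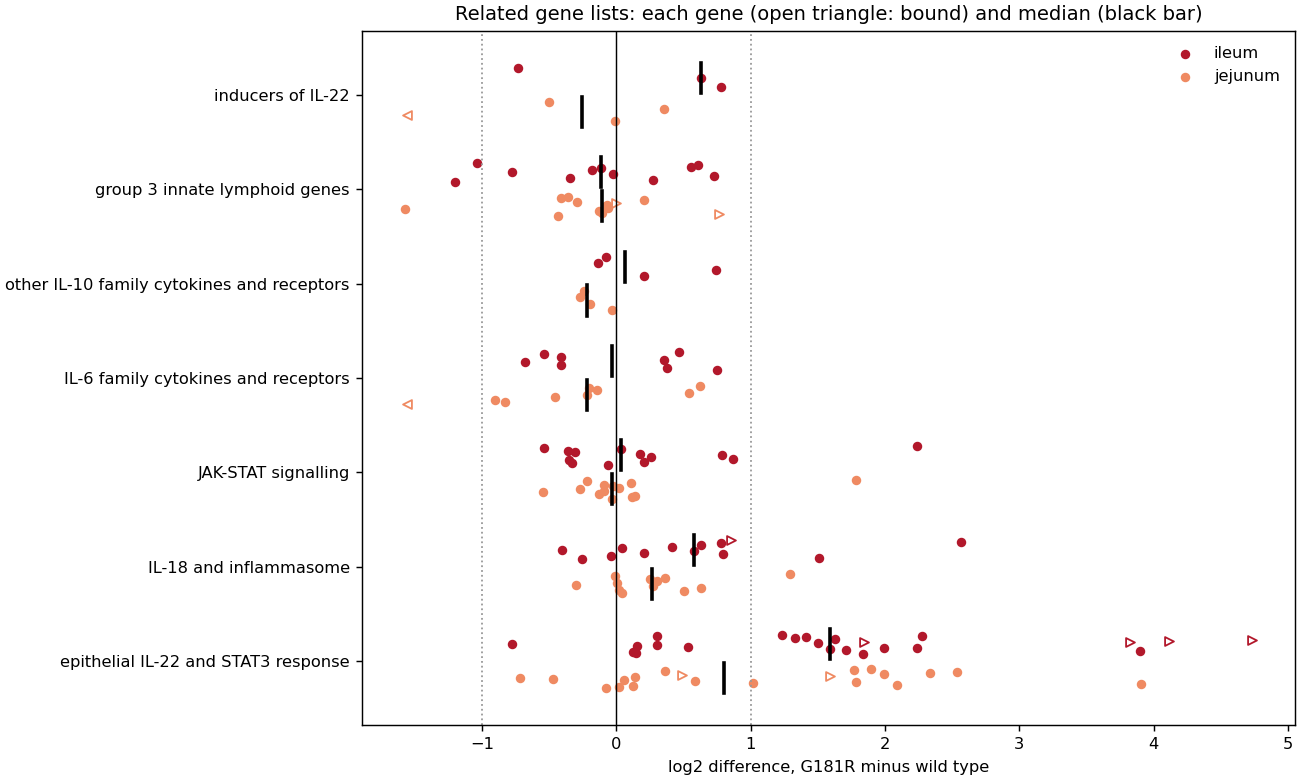
Log2 difference of G181R minus wild type (horizontal axis) for every measured gene of 7 related lists, in ileum and in jejunum, with open triangles for bounds, a black bar for each list's median and dotted lines at 2-fold. The epithelial response list has medians of 1.59 in ileum and 0.80 in jejunum, and the IL-18 list 0.58 and 0.26, while the innate lymphoid, IL-6, IL-10 and JAK-STAT lists have medians between -0.22 and 0.06.

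Markers of other cells moved in the same comparison. Neutrophils store Lrg1 protein. Of 10 neutrophil markers 8 were measured in ileum, with 4 at least 2-fold higher in G181R ileum, beside 2.44% of all genes, and a median of 0.96. S100a9 and S100a8 are among the 4 and were also counted in the epithelial response list above, so the lists are not separate. Both passed on the G181R ileum array only and entered the count and the median through it. Ly6g (183 against 53.4) and Ltf (134 against 38.9) were the others. Mpo, Elane and Camp, granule proteins of maturing neutrophils, differed by -0.06, -0.03 and -0.26, and Ngp was not well above background on any array. The summed level of the 10 was 98.998 and 92.1 times the 75th percentile in ileum (G181R and wild type) and 126.5 and 120.2 in jejunum, most of it Csf3r. Endothelial cells also make Lrg1, and their 8 markers had a median of -0.23 over 7 measured, with summed levels of 1.93 and 2.21 in ileum and 4.90 and 5.41 in jejunum (G181R first). Smooth muscle markers were far lower in G181R ileum, all 12 below wild type with a median of -2.44. Of them 9 were at least 2-fold lower, beside 3.98% of all genes, and their summed levels were 44.1 against 106. In jejunum their median was 0.17, with summed levels of 56.9 and 51.9. Macrophage and dendritic cell markers had medians of 0.28 and -0.11, and fibroblast markers -0.64 and -0.26, in ileum and jejunum. The part of these cells in the rise of Lrg1, Plet1, Il22 and Il18 was not tested. The epithelial markers differed by medians of -0.05 in ileum and 0.02 in jejunum.

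Plet1 and Il18 lie close together on chromosome 9, with 76.7 kb between their probes in mm9, and were set beside their neighbours, as were Lrg1 and Il22. The 2 nearest protein-coding genes on each side were taken from the RefSeq gene table of GRCm38.p6, a choice made after the members' values were seen. Between Plet1 and Il18 lie Pts, a pterin synthesis enzyme, and Bco2, a carotenoid-cleaving enzyme, which differed by 0.04 and 0.20 in ileum and 0.11 and -0.03 in jejunum. Tex12, a meiotic gene that lies within the span of Il18 in that table, had 62.2 against 33.1 in ileum and 94.8 against 45.6 in jejunum (G181R first), differences of 0.99 and 1.02. On the other side of Plet1, Ncam1 and Ttc12 differed by -0.79 and -0.76 in ileum.

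The genes on either side of Lrg1 on chromosome 17 were also higher in G181R ileum. Plin5, a lipid droplet protein, had 92.2 in G181R ileum against 23.4 in wild-type ileum, a difference of 2.06, and its second probe gave 2.26. Sema6b, a transmembrane semaphorin, had 136 against 49.3, a difference of 1.54, from a single probe. The next genes outward did not follow, with Plin4, another lipid droplet protein, at -1.51 and Tnfaip8l1 at -0.08. In jejunum Plin5 was at least 1.53-fold higher and Sema6b differed by 0.25. Beside Il22, Ifng, the interferon of lymphocytes, was seen in G181R ileum only, at a signal of 12.3, at least 1.81-fold above wild type, and Mdm1 differed by -0.12.

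**Figure D4:**
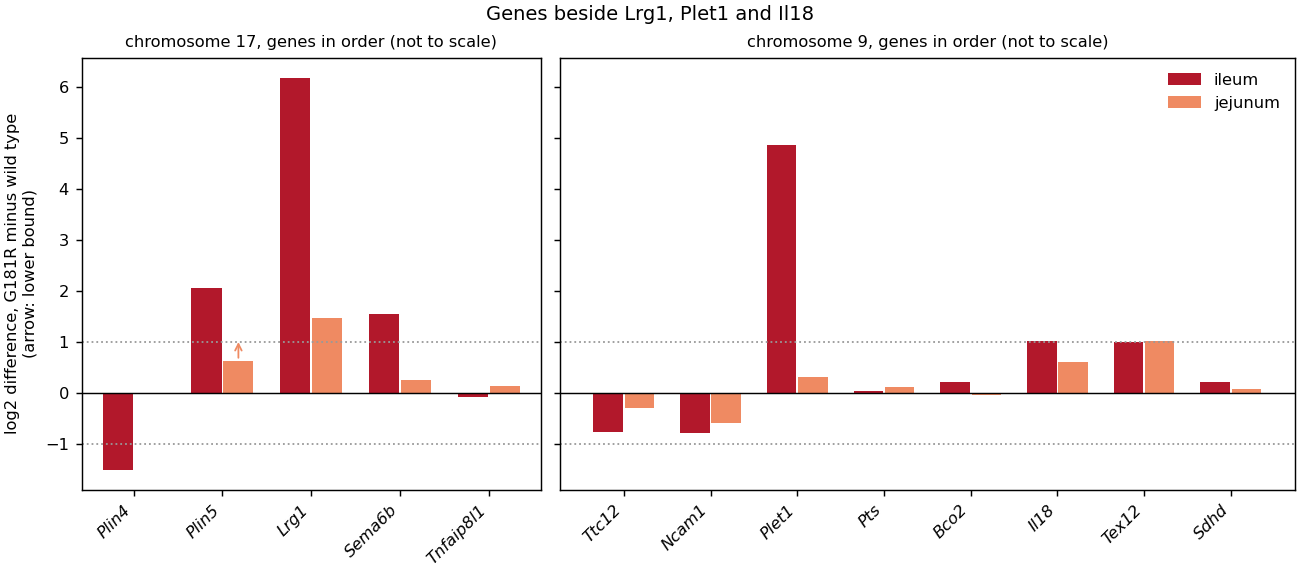
Log2 difference of G181R minus wild type (vertical axis) for Lrg1 with its 2 neighbours on each side, and for Plet1, Il18 and their neighbours, in ileum and jejunum, with genes in chromosomal order and dotted lines at 2-fold. Plin5 and Sema6b beside Lrg1 reach 2.06 and 1.54 in ileum, while Pts and Bco2 between Plet1 and Il18 stay at 0.04 and 0.20.

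The bases before the annotated starts of Lrg1 and Plet1 are shown because these genes had the largest measured rises among the members in ileum. They are the 250 bases upstream in RefSeq's GRCm38.p6, at chr17:56121947-56122196 on the minus strand for Lrg1 and chr9:50494275-50494524 on the plus strand for Plet1, with matches to the motifs below in capitals, of which Lrg1 has none in this stretch.
Lrg1 upstream: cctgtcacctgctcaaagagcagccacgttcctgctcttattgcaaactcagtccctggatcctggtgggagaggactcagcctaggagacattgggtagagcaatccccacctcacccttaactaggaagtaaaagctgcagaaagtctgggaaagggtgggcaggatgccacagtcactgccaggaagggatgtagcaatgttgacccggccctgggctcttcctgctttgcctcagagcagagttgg
Plet1 upstream: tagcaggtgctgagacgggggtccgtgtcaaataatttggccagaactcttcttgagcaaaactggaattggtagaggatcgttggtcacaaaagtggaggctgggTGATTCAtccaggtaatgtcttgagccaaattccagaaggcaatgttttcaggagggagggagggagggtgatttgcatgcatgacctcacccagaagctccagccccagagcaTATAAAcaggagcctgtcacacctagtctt

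Windows from 250 bases before to 50 after the start were at hand for 7 of the 10 members and searched on both strands. The STAT motif TTCNNNGAA was in 0 of these 7 and in 8.30% of all 32851 windows. The same arms, TTC and GAA, with 4 bases between them were in the window of Il18 and in 6.95% of all. The AP-1 motif TGANTCA was in the windows of Plet1, Il22ra1 and Osmr and in 7.81% of all, and its match in Plet1 began 144 bases before the start. TATAAA stood 30 bases before the start of Plet1, was also in the windows of Il18, Il22 and Lrg1, and in 13.6% of all. A match is a stretch of letters and not a shown binding site, and sites outside these windows were not searched.

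The genes whose levels over the 4 arrays ran most like those of Lrg1, among 14860 named genes well above background in G181R ileum, were Fut2, S100a9 and Retnlb. Likeness was the Euclidean distance between log2 levels, each gene less its own mean, and was 1.64, 2.66 and 2.78 for these genes. S100a9 was below background on the other 3 arrays and Fut2 on both jejunum arrays, so their likeness to Lrg1 there rests on background signals. For Plet1 they were Potegl (0.37), Ccdc85a (0.56) and H2ab1 (0.69), each well above background in G181R ileum only, with signals of 43.1, 47.3 and 31.2 there. For Il22 they were Ciart (0.39), H19 (0.40) and Cstdc1 (0.45), dim genes seen in G181R ileum only with signals of 8.63, 6.98 and 16.8. Over 4 arrays any gene that is high on 1 array alone resembles Plet1 in this measure.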

How the data were processed

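RNA of scraped ileal and jejunal epithelium was labelled with Cy3 from 100 ng per pool and hybridised to 1-colour Agilent mouse arrays of 62976 spots, per the labels' protocols. The deposited processed intensity had been background-subtracted and detrended array by array in Feature Extraction 11.5.1.1 from Agilent, per the file headers, with no scaling between arrays. These deposited files also hold raw mean and background signals, which normexp used, and flags of 0 or 1 per spot, such as well above background. A further deposited table by the authors is on a log2 scale. For 95.8% of probes it lies within 0.01, on all arrays, of the log2 processed intensity less 1 constant per array. Another 2356 probes, 1 of them the dimmer Il22ra1 probe, hold an identical value per array. The medians of its columns were -3.14 and -3.09 in ileum (G181R and wild type) and -3.09 and -3.09 in jejunum, and how the constants were set is not given in the sources used here. It served as an alternative only.

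From the scanner files, log2 processed signal was averaged over a probe's spots without outliers, each array's 75th percentile was subtracted, and the probe with the highest mean stood for its gene. Symbols came from the RefSeq table of GRCm38.p6 for 32994 probes and from the array design for 23611, and members by the design's gene name. A fold of 2 was the threshold of size. Named genes are all members, Dao, from each related list the 4 most different measured genes per tissue and any bound of at least 2-fold, and the 3 genes most alike in profile to Il22, Lrg1 and Plet1; others are marked as chosen later, as are here the cell markers and the list genes given as below background, and some list genes that the rule names are not reported here. Members and lists were chosen with earlier results of these data known. Alternatives were normexp (limma 3.58.1, offset 50), the deposited table, median scaling, quantile normalization, the mean of all probes, no background filter, outlier spots kept and folds of 1.5 and 4. The counting was tested on simulated data. The number of arrays limits the precision.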

Additional observations from a re-analysis of the deposited data

How the results depend on the processing

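Of 245 recomputed member differences, 244 kept their direction; Osmr between the tissues in G181R mice turned to 0.25 from -0.09 in the mean of its probes. Beyond the spot SD moved 40 values, 19 of them with normexp, where 32 of 35 lay closer to 0. The deposited table, median scaling and kept outlier spots moved 0 of 35 values each, and no background filter 1. Those settings barely alter the values, so directions kept under them are little of a check. The SD used for these shifts was 1 value per comparison over all repeated probes, 0.056 to 0.058, and most of those probes are bright. Dim probes have a larger SD, so some of the 40 shifts lie within the error at their own signal. With normexp the count of members at least 2-fold different was 2 in ileum (in place of 4) and 0 in jejunum (in place of 1) between genotypes, and between tissues 4 in G181R mice (in place of 6) and 2 in wild-type mice (in place of 4). At a fold of 4 the counts were 3 in ileum, 0 in jejunum, and between tissues 2 in G181R and 1 in wild-type mice. At a fold of 1.5, 2 members differed in jejunum. Of all genes, 1501 were called in ileum, against 406 with normexp, 3536 without a background filter, 255 at a fold of 4 and 4125 at 1.5. In jejunum 594 were called (44.1% higher), against 95 (65.3% higher), 2839, 77 and 2222. Between tissues the counts were 4187 in G181R mice, against 1812, 6917, 1075 and 8735, and 4255 in wild-type mice, against 1876, 7032, 1064 and 8846. The epithelial response list, recomputed after its values were seen, had 14 genes at least 2-fold higher in ileum with normexp (16 before) and 7 in jejunum (10 before), and 6 and 4 at a fold of 4. No paired analysis was possible because each group is 1 array. Differences of dim probes, those of Il22 and of Lrg1 in jejunum above all, were smaller with normexp. Its offset of 50, added to every spot, makes differences between dim signals smaller by itself, and the lower counts with normexp share this limit. The effect of background removal apart from the offset was not tested. No replicate array exists to measure the error of dim probes.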
